A study of Mus musculus with 10 samples.

Results

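The genes described here are 8 components of Hedgehog signal reception in mouse skin: the co-receptor genes Gas1, Cdon and Boc, the receptor gene Ptch1, the transducer gene Smo, the transcription factor genes Gli2 and Gli3, and Sufu, whose protein binds Gli factors. They were chosen by name as parts of the pathway, with earlier results of these data known. All 8 had a single-gene locus of status OK (analysed by the authors) in both deposited tables, among 10583 loci with that status in both. RNA was sequenced from FACS-sorted primary keratinocytes of FVB/N mice at postnatal day 4, and the question was how cells that carry progerin differ from wild type cells in each layer of the epidermis. Each layer had 3 wild type and 2 bitransgenic HGPS (Hutchinson-Gilford progeria) samples. The labels name neither the transgenes nor the promoter that drives them, and they do not say whether a sample is 1 animal. Title stems recur between the layers.

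Hedgehog ligands bind Ptch1 at the cell surface, together with Gas1, Cdon or Boc, and this binding relieves the block that Ptch1 places on Smo. Active Smo works through the primary cilium and releases Gli2 and Gli3 from Sufu, Gli2 acting mainly as an activator and Gli3 mainly as a repressor of target genes. Ptch1 is itself a target gene of the pathway. In skin the pathway is known for its role in hair follicle growth, and its uncontrolled activity drives basal cell carcinoma.

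The authors deposited 1 level per group, read here as FPKM (fragments scaled by transcript length and by the number mapped), so the levels carry no spread between samples and the depth of the libraries is unknown. Fold changes are bitransgenic over wild type on the log2 scale, computed from those levels. The ± is the standard error (SE) implied by the authors' p, and intervals are 95% normal intervals from that SE. A gene was called, and is said to have fallen or risen, when the authors' adjusted p (q) was under 0.05. In bulk samples such as these, fewer cells of a type and less RNA per cell cannot be told apart.

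Across all loci, 186 of 11290 were called in basal cells, 29 higher and 157 lower, and 54 of 11464 in suprabasal cells, 6 higher and 48 lower. The authors' q is smaller than a Benjamini-Hochberg adjustment of their p over the same loci, which leaves 63 basal and 47 suprabasal calls. Those 63 were 11 higher and 52 lower. When the fold changes were centred on expressed genes before the adjustment, 14 basal loci were called higher and 27 lower. The integrin gene Itga6, a basal marker, stood at 241 FPKM in the basal and 106 FPKM in the suprabasal sort of wild type skin, and Krt10, a keratin of differentiating cells, at 2319 and 6574 FPKM. In bitransgenic skin Itga6 had 220 and 85.1 FPKM in these sorts, and Krt10 1601 and 2354 FPKM. Krt1, also of differentiating cells, had 1725 and 3419 FPKM in wild type, but 1750 and 1622 FPKM in bitransgenic skin. A merged locus with Xist, the RNA of the inactive X chromosome, had 0.258 FPKM in wild type and 108 FPKM in bitransgenic basal cells, and 0.236 and 103 FPKM in suprabasal cells. Of the Y-linked genes, Ddx3y had 32.1 and 20.7 FPKM in basal cells, and 31.2 and 14.1 FPKM in suprabasal cells. Eif2s3y had 35.2 and 23.0 FPKM, and 38.9 and 28.6 FPKM. Kdm5d was lower in bitransgenic cells of both layers, and so was a Uty locus. The other, more abundant Uty locus had 63.6 and 25.5 FPKM in basal cells, but 66.7 and 71.6 FPKM in suprabasal cells. Transcripts of these Y-linked genes were thus present in both genotypes. With 1 level per group, the effects of sex and of genotype cannot be told apart. The part of these sex-linked differences in the results was not tested. The median log2 fold change of expressed genes, those with at least 1 FPKM in both groups, was -0.11 in basal and -0.08 in suprabasal cells.

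Gas1 was the only one of the 8 genes that passed the test in any layer, and it was lower in bitransgenic cells of both. The co-receptor genes Gas1 and Cdon had the 2 lowest fold changes of the 8 in each layer, while the third co-receptor gene, Boc, and the genes for Ptch1, Smo, Sufu and the Gli factors had smaller ones, all uncalled. In basal cells 1 of 8 genes was called, against 1.65% of all loci in either direction and 1.39% lower. In suprabasal cells none of 8 was called at the authors' q, where 0.471% of all loci were called and 0.419% were lower. At the authors' unadjusted p under 0.05 there were 3 of 8 genes in basal cells (Gas1, Cdon and Ptch1) and 2 of 8 in suprabasal cells (Gas1 and Cdon), against 7.68% and 7.11% of all loci. The 8 genes were chosen with earlier results known, so these shares describe the list and do not test it.

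**Figure D1:**
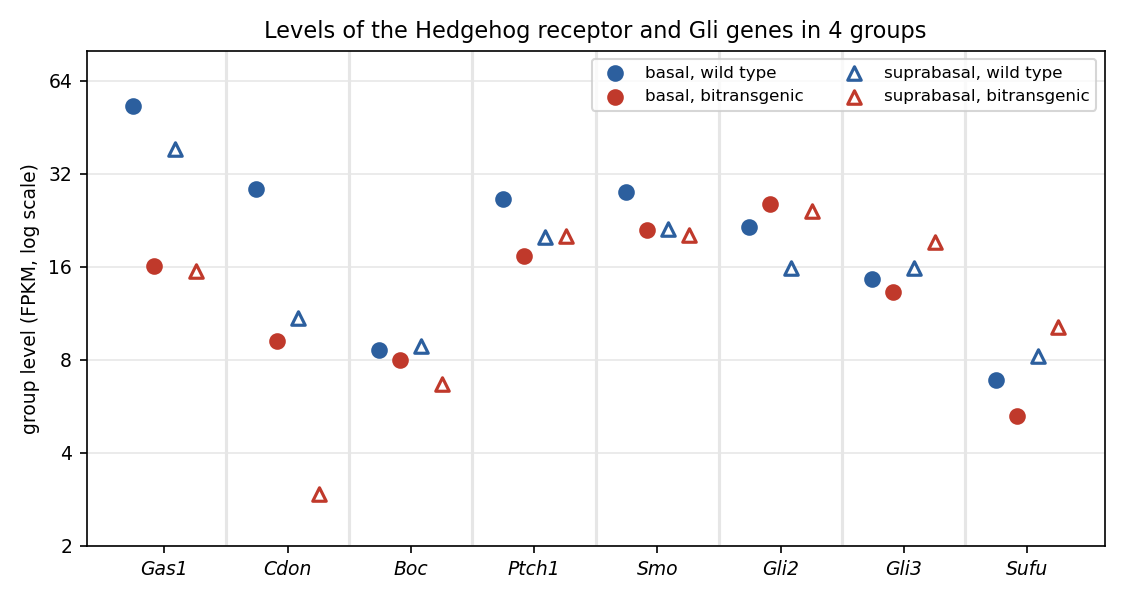
Level of each gene in the 4 groups, in FPKM on a log scale; each symbol is the authors' single value for a group, so there are no error bars. Gas1 goes from 53.0 FPKM in wild type to 16.02 FPKM in bitransgenic basal cells, and Cdon is at 2.95 FPKM in bitransgenic suprabasal cells.

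Gas1 encodes a membrane-anchored protein that binds Hedgehog ligands, first known as a gene of growth arrest. Its level was 53.0 FPKM in wild type basal, 16.02 FPKM in bitransgenic basal, 38.4 FPKM in wild type suprabasal and 15.5 FPKM in bitransgenic suprabasal cells. Both wild type values thus lay above both bitransgenic values, and the bitransgenic values of the layers were close to each other. In basal cells Gas1 fell to 0.302 of the wild type level, by -1.73 ± 0.43 on the log2 scale, with an adjusted p of 0.00858 in the authors' deposited table. After Benjamini-Hochberg readjustment of the authors' p over all basal loci it was 0.0128. The authors' p for this gene, 5e-05, is the smallest in the table and shared by 44 basal loci, so the SE is an upper bound. In suprabasal cells the log2 fold change was -1.31 ± 0.38, and the adjusted p of 0.0631 in the authors' deposited table missed the threshold. Only 3.99% of basal loci and 4.75% of suprabasal loci had a fold change as low as that of Gas1 or lower. In wild type basal cells Gas1 stood above 87.8% of loci by level, and in bitransgenic basal cells above 61.0%.

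Gas1 lies on chromosome 13 from 60174405 to 60177365 on the minus strand (mm10), and its annotated coding transcript (GENCODE M21) has 1 exon. The lincRNA gene Gm48488 lies on the opposite strand and overlaps it; the libraries were strand-specific per the labels, but whether strand was used in counting is not given in the sources used here. Of the nearest analysed loci, Zcchc6, 351258 bases away, had 27.8 and 22.0 FPKM in wild type and bitransgenic basal cells, and Gm20563 on the other side had 23.5 and 25.8 FPKM, both uncalled.

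The RefSeq sequence before the start of Gas1 is shown because this is the gene that was called, and that of Ptch1 because Ptch1 is a target of the Gli factors. Each run is the 250 bases upstream of the RefSeq start, 5′ to 3′ on the gene's strand (GRCm38.p6), and capitals mark a CCAAT box, a common promoter element. The Gas1 run is chr13:60177536-60177785 and the Ptch1 run is chr13:63565736-63565985, both on the minus strand.
Gas1: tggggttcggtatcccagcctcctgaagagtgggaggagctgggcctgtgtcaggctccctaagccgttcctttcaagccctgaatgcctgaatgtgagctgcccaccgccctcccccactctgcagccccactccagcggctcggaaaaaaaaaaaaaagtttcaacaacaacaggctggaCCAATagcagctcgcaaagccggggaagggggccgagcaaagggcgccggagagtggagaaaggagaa
Ptch1: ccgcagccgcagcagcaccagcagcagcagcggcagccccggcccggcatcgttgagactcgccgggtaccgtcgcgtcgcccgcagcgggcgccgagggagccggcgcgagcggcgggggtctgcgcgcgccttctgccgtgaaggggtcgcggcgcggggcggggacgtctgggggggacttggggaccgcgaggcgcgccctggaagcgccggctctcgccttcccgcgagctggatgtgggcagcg
The CCAAT box (CCAAT or its reverse complement ATTGG) was found once in the Gas1 run and not in the Ptch1 run, and 33.8% of 32851 promoter windows of this length hold it. The Gli consensus GACCACCCA, searched on both strands, was in neither run and in 0.225% of all windows. The AP-1 motif TGANTCA, bound by Fos and Jun proteins, was in neither run and in 6.75% of all windows. Of the 8 genes, 7 have a window in the table, and besides Gas1 only that of Sufu holds a CCAAT box. The RefSeq start used for Ptch1 lies inside the gene as GENCODE M21 bounds it, and so does that of Cdon, whose window also holds 31 exon bases of other transcripts. The Ptch1 run has a GC content of 78.4%, the Gas1 run one of 58.8%, and the median of all windows is 52.4%.

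Cdon encodes a transmembrane co-receptor of the immunoglobulin family that also acts in cell adhesion. Its level was 28.6 FPKM in wild type basal, 9.21 FPKM in bitransgenic basal, 10.9 FPKM in wild type suprabasal and 2.95 FPKM in bitransgenic suprabasal cells. It thus had the widest range of the 8 genes over the 4 groups, 9.68-fold from lowest to highest, and was lower in bitransgenic cells of both layers. The log2 fold changes were -1.63 ± 0.65 in basal and -1.89 ± 0.67 in suprabasal cells, with intervals from -2.91 to -0.36 and from -3.19 to -0.58. Neither was called: the adjusted p in the authors' deposited table was 0.129 in basal and 0.141 in suprabasal cells. With a pseudocount of 5 FPKM the suprabasal value was nearer to 0 by more than its own SE.

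Boc, a paralogue of Cdon, was nearly even across the groups, with 8.63 FPKM in wild type basal, 7.99 FPKM in bitransgenic basal, 8.87 FPKM in wild type suprabasal and 6.65 FPKM in bitransgenic suprabasal cells. Its log2 fold changes of -0.11 ± 0.29 (0.00074 after centring, so of the opposite sign) and -0.42 ± 0.37 were not called, and the interval in basal cells ran from -0.67 to 0.45. The summed level of the 3 co-receptor genes was 90.2 FPKM in wild type basal and 33.2 FPKM in bitransgenic basal cells, and 58.2 and 25.1 FPKM in suprabasal cells. Boc made up 9.57% of that sum in wild type basal cells and 24.1% in bitransgenic basal cells. The corresponding shares were 15.3% and 26.5% in suprabasal cells, while Gas1 stayed the most abundant of the 3 in all groups, at 48.2% to 66.0% of the sum.

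**Figure D2:**
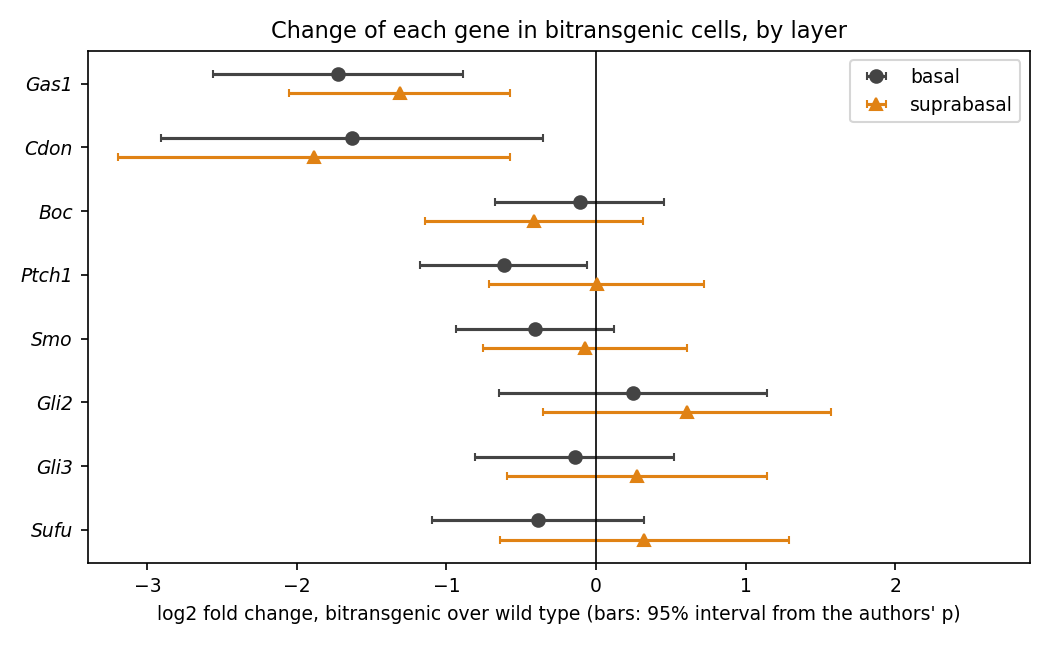
Log2 fold change of each gene, bitransgenic over wild type, in basal (circles) and suprabasal (triangles) cells; bars are 95% intervals from the SE implied by the authors' p. The intervals of Gas1 and Cdon lie below 0 in both layers, that of Ptch1 in basal cells ends at -0.06, and the others include 0.

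Ptch1, the Hedgehog receptor, had 26.5 FPKM in wild type basal, 17.3 FPKM in bitransgenic basal, 20.0 FPKM in wild type suprabasal and 20.04 FPKM in bitransgenic suprabasal cells. The bitransgenic basal value was the lowest of the 4, and the suprabasal values were nearly equal. The basal log2 fold change was -0.62 ± 0.28 (interval -1.18 to -0.06) with an unadjusted p of 0.0298 and an adjusted p of 0.271 in the authors' deposited table, so it was not called. The suprabasal one was 0.0043 ± 0.37, with an interval from -0.72 to 0.72, which covers falls as large as the basal one.

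Smo, the membrane protein that Ptch1 holds in check, had 27.9 FPKM in wild type basal, 21.0 FPKM in bitransgenic basal, 21.2 FPKM in wild type suprabasal and 20.2 FPKM in bitransgenic suprabasal cells. An annotated pseudogene, Gm13717, lies inside Smo and was counted as a locus of its own. The log2 fold changes of Smo were -0.41 ± 0.27 and -0.07 ± 0.35 (0.0060 after centring, so of the opposite sign), both uncalled. Ptch1 and Smo were present at similar levels throughout, with a ratio of Ptch1 to Smo of 0.951 and 0.823 in wild type and bitransgenic basal cells, and 0.940 and 0.992 in suprabasal cells. The summed co-receptor level was 3.40 times that of Ptch1 in wild type basal cells and 1.92 times in bitransgenic basal cells, and 2.91 and 1.25 times in suprabasal cells.

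The transcription factor genes had higher or nearly equal levels in bitransgenic cells, and none was called. Gli2 had 21.5 FPKM in wild type basal, 25.6 FPKM in bitransgenic basal, 15.8 FPKM in wild type suprabasal and 24.2 FPKM in bitransgenic suprabasal cells, so both bitransgenic values lay above both wild type values. Its log2 fold changes were 0.25 ± 0.46 and 0.61 ± 0.49, with intervals from -0.65 to 1.14 and from -0.36 to 1.57. Gli3 had 14.6 FPKM in wild type basal, 13.2 FPKM in bitransgenic basal, 15.9 FPKM in wild type suprabasal and 19.2 FPKM in bitransgenic suprabasal cells (-0.14 ± 0.34 and 0.27 ± 0.44). The Gli3 locus as the authors counted it starts at base 15440302 of chromosome 13 (mm10), before the annotated gene start at 15463235, in a stretch that holds Gm6556 on the opposite strand. Gli2 stood at 1.47 times the level of Gli3 in wild type and 1.93 times in bitransgenic basal cells, and at 0.998 and 1.26 times in suprabasal cells.

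Sufu, the cytoplasmic inhibitor of the Gli factors, was the lowest of the 8 genes in both basal groups. It had 6.89 FPKM in wild type basal, 5.27 FPKM in bitransgenic basal, 8.19 FPKM in wild type suprabasal and 10.2 FPKM in bitransgenic suprabasal cells. The log2 fold changes of -0.39 ± 0.36 in basal and 0.32 ± 0.49 in suprabasal cells were not called. The 2 Gli genes together stood at 5.24 and 7.36 times the level of Sufu in wild type and bitransgenic basal cells, and at 3.87 and 4.23 times in suprabasal cells.

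**Figure D3:**
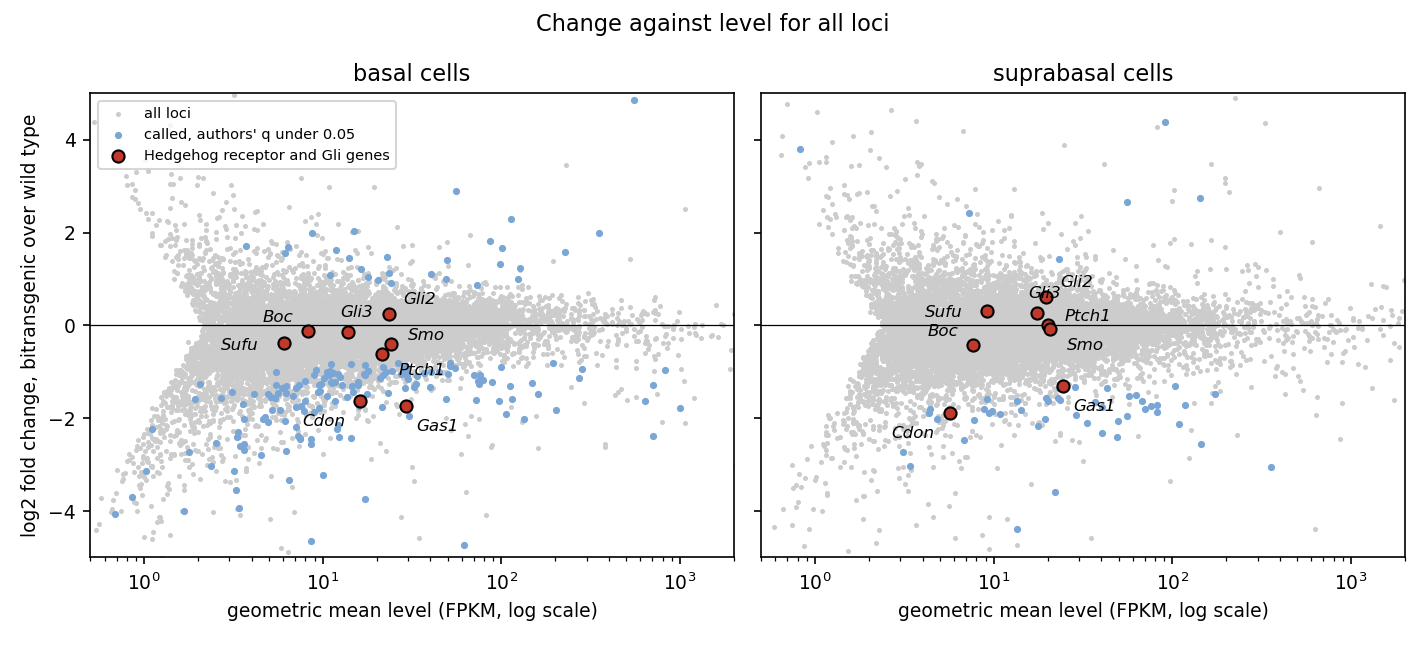
Log2 fold change, bitransgenic over wild type, against the geometric mean level (FPKM, log scale) of each locus in basal and suprabasal cells; grey points are all loci, blue points called loci, red points the 8 genes. Beyond the axes lie 48 basal and 56 suprabasal loci. Gas1 and Cdon are at the lower edge of the cloud in both layers, and the other 6 are inside it.

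As a list, the 8 genes had a median log2 fold change of -0.40 in basal cells, with 7 below 0, beside a median of -0.12 over all 11290 loci, of which 60.3% were below 0. In suprabasal cells the median was -0.03, with 4 below 0, beside -0.08 over all loci, and it was 0.04 after centring. All 8 genes had at least 5 FPKM in the higher group of each layer, so a filter on low levels removed none.

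The difference between the layers in the response was put to a Wald z-test, two-sided, with Benjamini-Hochberg adjustment over 10579 loci. None of the 8 genes passed, at the adjusted or the unadjusted p, while 4 loci (0.0378%) passed after adjustment and 3.08% had an unadjusted p under 0.05. The suprabasal minus basal difference was 0.62 for Ptch1 (interval -0.29 to 1.53) and 0.71 for Sufu (interval -0.49 to 1.91), the largest of the 8. For Gas1 it was 0.41 (interval -0.70 to 1.53) and for Cdon -0.25 (interval -2.08 to 1.57), so differences of more than 2-fold in either direction lie within the interval for Cdon, and upward for Gas1.

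Between the layers, the levels are set side by side without a test, because the sources used here do not say how the tables were scaled to each other. In wild type cells 5 of the 8 genes had the lower level in suprabasal cells (median log2 ratio -0.40, beside -0.04 over all loci). Cdon showed the steepest step, with a suprabasal level of 0.382 of the basal one in wild type and 0.320 in bitransgenic cells. Gas1, Ptch1, Smo and Gli2 had 0.725 to 0.762 of their basal level in wild type suprabasal cells, and 0.945 to 1.16 in bitransgenic cells. Sufu had 1.19 times its basal level in wild type and 1.94 times in bitransgenic suprabasal cells, and Gli3 1.09 and 1.45 times. The order of the 8 genes differed between genotypes: Gas1 ranked highest in both wild type groups, and Gli2 in both bitransgenic groups. In wild type basal cells Cdon, Smo and Ptch1 followed Gas1 within 28.6 to 26.5 FPKM, and in bitransgenic suprabasal cells Smo and Ptch1 were both near 20 FPKM. With 1 value per group, no order of neighbours could be tested.

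The loci whose profile over the 4 groups was most like that of Gas1, out of 9452 single-gene loci and by distance between centred log2(FPKM + 1) values, were Fos (distance 0.0948), Nxph4 (0.132) and Fosb (0.188). Fos, an immediate early transcription factor gene, had 1120 FPKM in wild type and 365 FPKM in bitransgenic basal cells, and 867 and 332 FPKM in suprabasal cells. Immediate early genes are known to respond quickly to the handling of tissue. They were read beside Gas1 as a list. In basal cells 4 of 9 fell, beside 1.39% of all loci called lower, and 9 of 9 were below 0, beside 60.3%. Their summed level was 5455 FPKM in wild type and 2459 FPKM in bitransgenic basal cells. Of the 4, Junb and Ier2 were still called after Benjamini-Hochberg readjustment, and Fos and Fosb were not (0.149 and 0.196). In suprabasal cells 2 of 9 fell (Junb and Ier2), beside 0.419% of all loci called lower, and 9 of 9 were below 0, beside 56.6%. The summed levels there were 4097 and 1586 FPKM. The part of the immediate early genes in the Gas1 result was not tested. The loci most like Ptch1 were Sidt2 (distance 0.0283), Akirin2 (0.0659) and Phrf1 (0.0684), and none of them was called in either layer.

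Gas1, Cdon and Boc are also expressed by dermal fibroblasts, so fibroblast markers were read beside them. In basal cells 6 of 14 markers had a locus of status OK, with summed levels of 316 FPKM in wild type and 176 FPKM in bitransgenic cells, of which Postn made up 291 and 161 FPKM. The other 5 summed to 25.1 and 14.7 FPKM. Of the 6, 5 were below 0, and the median log2 fold change was -0.86. Among the 6, Col5a2 was called lower, a call not kept after Benjamini-Hochberg readjustment (0.191). The defining markers Col1a1, Col1a2, Col3a1 and Pdgfra had no such locus in basal cells and were not analysed there. In suprabasal cells 10 of 14 had one, their summed level was 465 FPKM in wild type and 572 FPKM in bitransgenic cells, and 6 of the 10 were above 0; Postn alone fell, from 119 to 38.2 FPKM. Vim made up 316 and 492 FPKM of the suprabasal sums, and the other 9 markers summed to 149 and 79.99 FPKM. The direction of that sum thus turned without Vim, with Postn making up 119 and 38.2 FPKM of it. Of the defining markers, Col1a1 had 3.02 and 4.20 FPKM in suprabasal cells, Col1a2 3.69 and 10.4 FPKM, and Col3a1 3.02 and 6.13 FPKM. These 3 were higher in bitransgenic cells and uncalled, Pdgfra had no such locus, and 4 of the 10 markers were below 0. The sums of the layers rest on different markers. Melanocyte markers had summed levels of 8.38 and 12.9 FPKM (3 of 8 with a locus) in basal cells and of 2073 and 3843 FPKM (8 of 8) in suprabasal cells, none called. Hair follicle markers, whose cells respond to Hedgehog, had 655 and 964 FPKM in basal (6 of 13) and 1875 and 2261 FPKM in suprabasal cells (8 of 13). Krt17 carried both differences, and the remaining markers summed to 68.7 and 67.4 FPKM in basal and 131 and 102 FPKM in suprabasal cells. Tchh, a gene of the inner root sheath, fell in both layers. Basal keratinocyte markers had summed levels of 18885 and 12097 FPKM in basal cells, with 8 of 9 below 0. In suprabasal cells the sums were 8759 and 4767 FPKM, with 7 of 9 below 0. A merged locus of Krt5 with Krt2, Krt8 and other keratin genes, uncalled, made up 11677 and 6923 FPKM of the basal sums. It made up 5147 and 2591 FPKM of the suprabasal sums. The other 8 loci summed to 7208 and 5174 FPKM in basal cells, and to 3612 and 2176 FPKM in suprabasal cells. Itga6, Itga3 and Trp63 had basal log2 fold changes of -0.14, 0.14 and -0.10. Those of Itgb4, Col17a1 and Dst were -0.67, -0.65 and -0.69, all uncalled. The basal median of the 9 markers was -0.65. Krt15, a keratin of basal and hair follicle bulge cells, was called lower in both layers, with 1602 and 308 FPKM in basal cells (adjusted p 0.0941 after Benjamini-Hochberg readjustment) and 1025 and 124 FPKM in suprabasal cells. Of 7 dermal papilla markers, Trps1 alone could be read in basal cells, and in suprabasal cells Corin was called higher, at 0.219 and 3.05 FPKM (adjusted p 0.0541 after the same readjustment). Suprabasal keratinocyte markers had summed levels of 8621 and 10696 FPKM in basal cells, with 4 of 8 below 0. In suprabasal cells the sums were 18766 and 14221 FPKM, with 3 of 8 below 0 and a median log2 fold change of 0.15. Krt10 had 6574 and 2354 FPKM of these sums and Krt1 3419 and 1622 FPKM, both uncalled. Krtdap made up 4173 and 6915 FPKM of the basal sums, and the other 7 loci summed to 4449 and 3781 FPKM. Lor, of that list, was called lower in basal cells, at 17.2 and 3.18 FPKM (adjusted p 0.0513 after Benjamini-Hochberg readjustment). The part of any of these cell types in the values of the 8 genes was not tested.

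Among 93 other genes of the pathway, 70 had a locus of status OK in each layer (71 loci). In basal cells 1 of the 71 fell and none rose, beside 1.39% of all loci called lower, and 11 had an unadjusted p under 0.05, beside 7.68% of all loci. The median was -0.33 with 57 of 71 below 0, beside -0.12 and 60.3% over all loci. In suprabasal cells none of 71 was called by the authors' q, beside 0.471% of all loci (6 had an unadjusted p under 0.05, beside 7.11%). The median was -0.09 with 41 below 0, beside -0.08 and 56.6% over all loci. The calls of each list below stand beside the same shares of all loci, 1.65% called in basal and 0.471% in suprabasal cells.

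**Figure D4:**
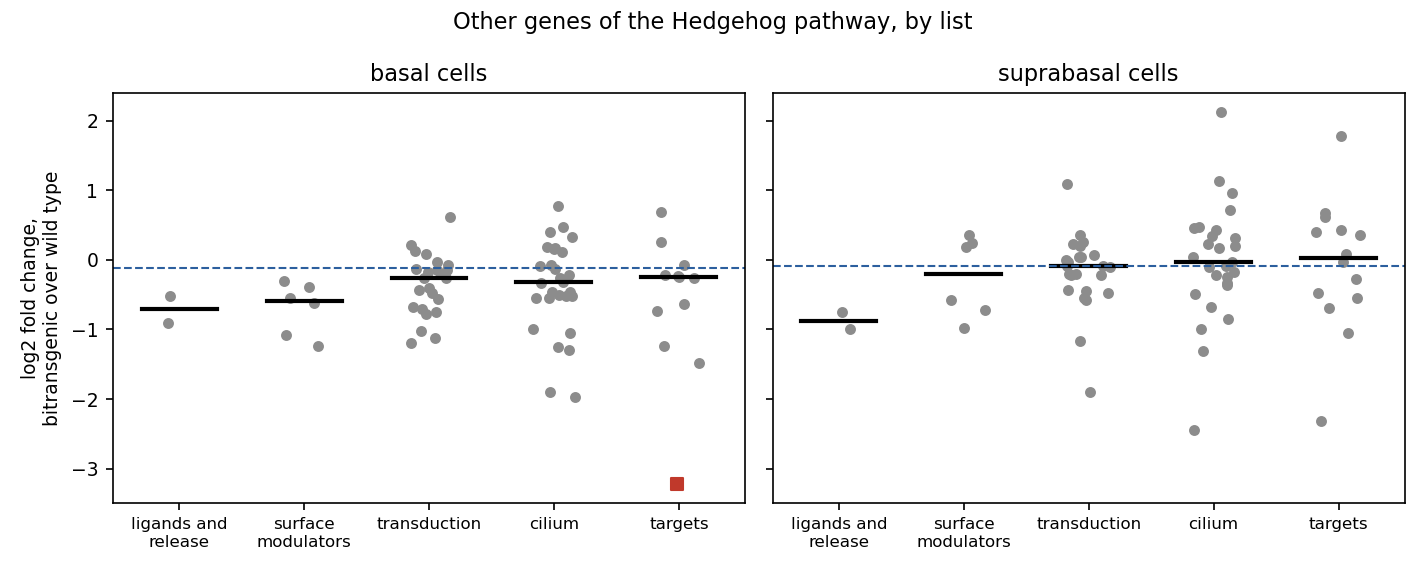
Log2 fold change, bitransgenic over wild type, of the other pathway genes in 5 lists; each point is a locus, the black bar is the list's median, the red square is a called locus and the dashed line is the median of all loci (-0.12 in basal, -0.08 in suprabasal cells). The single red square is Igfbp3 among the targets in basal cells.

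None of the 3 ligand genes, Shh, Ihh and Dhh, had a locus of status OK, and of 9 genes for ligands and their release only Disp1 and Scube2 could be read. Disp1, which releases lipid-bearing ligand from the producing cell, had 5.19 FPKM in wild type and 2.76 FPKM in bitransgenic basal cells (-0.91 ± 0.40), and 5.71 and 2.86 FPKM in suprabasal cells (-0.998 ± 0.41). Scube2, a secreted helper of that release, had 8.02 and 5.61 FPKM in basal and 5.07 and 3.02 FPKM in suprabasal cells. Neither gene was called in either layer, and the list's medians were -0.71 and -0.87.

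Of 11 other receptors and surface modulators, 6 were measured and none was called, with medians of -0.59 in basal and -0.20 in suprabasal cells. Gpc3, a proteoglycan that competes with Ptch1 for ligand, had 28.6 and 13.5 FPKM in basal cells (-1.08 ± 0.40) and 13.8 and 6.998 FPKM in suprabasal cells. Its relative Gpc4 had 33.8 and 20.6 FPKM in suprabasal cells, and Mgrn1, a ubiquitin ligase that acts on Smo, had 11.2 and 13.3 FPKM there. Hhip, a decoy receptor, had no locus of status OK.

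Of 26 transduction genes, 23 were measured in each layer and none was called; their medians were -0.26 and -0.09. Gli1, the factor whose transcript reads out the pathway, had a locus of status OK in suprabasal cells only, at 3.99 FPKM in wild type and 3.91 FPKM in bitransgenic cells (-0.03 ± 0.44). In basal cells the lowest fold changes among transduction genes of at least 5 FPKM were those of Numb (25.2 to 11.0 FPKM) and Prkacb, a catalytic subunit of protein kinase A (15.6 to 7.17 FPKM, -1.12 ± 0.43). The highest were those of Prkar1a, a regulatory subunit of that kinase (46.0 to 70.6 FPKM, 0.62 ± 0.29), and Itch (13.3 to 15.4 FPKM). In suprabasal cells Arrb1 had 5.61 and 1.51 FPKM, Iqce 11.2 and 4.96 FPKM, Efcab7 9.16 and 19.4 FPKM and Cul3 44.9 and 53.7 FPKM, none of them called.

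Of 29 genes of the primary cilium, 28 were measured in basal and 27 in suprabasal cells, and none was called. Their medians were -0.32 and -0.03. In basal cells Mks1, of the ciliary transition zone, had 5.74 and 1.46 FPKM (-1.98 ± 0.97) and Ift140, of intraflagellar transport, 10.9 and 2.91 FPKM, while B9d1 had 8.38 and 14.3 FPKM and Ofd1 4.12 and 5.42 FPKM. In suprabasal cells Ift81 had 3.98 and 17.3 FPKM (2.12 ± 0.94), Bbs7 2.68 and 5.86 FPKM, Bbs2 6.37 and 2.57 FPKM and Ift140 8.58 and 4.33 FPKM.

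Of 21 target genes outside the 8, 12 were measured in basal cells, where Igfbp3 fell and none rose, and 14 in suprabasal cells, where none was called; the medians were -0.25 and 0.03. Igfbp3, an IGF-binding protein gene with other known regulators, went from 30.8 FPKM in wild type to 3.30 FPKM in bitransgenic basal cells (-3.22 ± 0.79, an SE that is an upper bound). In suprabasal cells it had 8.81 and 1.77 FPKM (-2.32 ± 0.71), with an adjusted p of 0.110 in the authors' deposited table. Sox9, a transcription factor gene of hair follicle cells, had 30.1 and 36.1 FPKM in basal and 70.2 and 43.5 FPKM in suprabasal cells, and Ccne1, a cyclin gene, 5.08 and 8.13 FPKM in basal and 1.82 and 6.23 FPKM in suprabasal cells. Prdm1 had 3.70 and 5.90 FPKM in suprabasal cells. None of Sox9, Ccne1 and Prdm1 was called. None of the 69 pathway loci tested in both tables differed between the layers after adjustment, beside 0.0378% of all loci. An unadjusted Wald p under 0.05 was found for 5 of the 69, beside 3.08% of all loci.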

How the data were processed

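Primary keratinocytes were sorted by FACS and their RNA was made into strand-specific libraries with a low-input kit, per the labels' protocols. TopHat, Cufflinks and the mm10 build are named in the submitters' processing notes, without versions. The authors deposited 1 table per layer, each locus with a group level per genotype, read as FPKM from the Cuffdiff form of the file headers, a log2 fold change, a test statistic (a score), a p-value and a q-value. The header gives no unit for the levels, and no scaling between libraries is stated. Of 11316 basal and 11490 suprabasal loci, 26 in each table had the status HIDATA and were left out. Log2 ratios were recomputed from the levels and matched the deposited ones within 4.13e-05. Locus starts count from 0 in the files and are given here from 1.

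Calls are the authors' q under 0.05, over all loci. The SE is the absolute log2 fold change divided by the normal quantile that matches the authors' two-sided p. Layers were compared by a Wald z-test across all loci, which treats them as independent although 4 of 6 title stems occur in both. The implied SE rests on the spread between deposited samples, which may be technical. Alternatives were the authors' p readjusted by Benjamini-Hochberg, centring, pseudocounts of 1 and 5 FPKM, a minimum of 5 FPKM and the removal of merged loci. The genes and lists were chosen with earlier results of these data known. Genes named are the 8, every called gene of the pathway lists, the measured ligand genes, Hhip and Gli1, and the 2 largest rises and falls per list and layer with at least 5 FPKM in the higher group; 1 gene that this rule names is not reported here. Promoter sequences and symbols come from RefSeq (GRCm38.p6) and gene structures from GENCODE M21. Python 3.11.15, pandas 2.3.3, NumPy 2.4.6, SciPy 1.17.1 and matplotlib 3.10.9 were used.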

Additional observations from a re-analysis of the deposited data

How the results depend on the processing

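The single basal call (Gas1), the absence of suprabasal calls among the 8 genes, the counts of called pathway genes and the absence of layer differences held under every alternative run. For calls, each alternative used a Benjamini-Hochberg adjustment in place of the smaller authors' q, so it could hardly add a call. The filters on level and on merged loci removed none of the 8 genes. The adjusted p of Gas1 in basal cells was 0.0128 after Benjamini-Hochberg readjustment over the analysed loci and 0.0481 after centring, close to the threshold; in suprabasal cells it was 0.0896 and 0.160. Of 64 settings tried on the fold changes of the 8 genes, 61 kept direction and call (readjustment and centring) or moved by less than the gene's own SE (pseudocounts, where no call was made). After centring, Boc in basal cells had 0.00074 and Smo in suprabasal cells 0.0060, both changing sign from small negative values, because the shift exceeds them. The pseudocount of 5 FPKM moved Cdon in suprabasal cells toward 0 by more than its own SE. The count of all basal loci called, 186 at the authors' q, was 63 after readjustment, 41 after centring, 75 with a minimum of 5 FPKM and 61 without merged loci; each of these settings includes a Benjamini-Hochberg adjustment in place of the authors' q. No paired analysis was possible because each group is deposited as 1 value, and leaving out samples could not be run for the same reason. Depth is unknown, so errors rest on the authors' p alone.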
